A study of Homo sapiens with 12 samples.

Results

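The transition from G1 into S phase and the copying of DNA that follows were examined through 34 genes, listed by symbol and each matched to 1 Ensembl identifier among the 60662 genes of the RNA-seq count files and among the 12224 genes of the series table of translation efficiency. The list holds 17 genes that control entry into S phase, from the D cyclins to the E2F factors, and 17 genes of replication, from licensing to nucleotide supply. All libraries came from HEK293T, an established human embryonic kidney line that carries adenovirus early region genes and the SV40 large T antigen, viral proteins known to bind the RB family. The genotype label of all samples is WT. The DMSO group received 0.2% (v/v) DMSO for 6 h, and the STM2457 group received, for the same 6 h in 0.2% DMSO, 20 µM of STM2457, a compound that blocks METTL3, the enzyme that writes m6A on mRNA. Every culture in both groups also received an extra 10% of fetal bovine serum 1 h before lysis and cycloheximide at 100 µg/ml for the final 3 min. RNA-seq had 4 libraries per group and ribosome profiling, which sequences the 26 to 34 nt of mRNA shielded by a ribosome, had 2. Whether replicates were separate cultures is not stated. The p-values below thus weigh group differences against a scatter between libraries that could be purely technical.

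D-type cyclins with CDK4 or CDK6, and then E-type cyclins with CDK2, phosphorylate the RB family proteins, which releases E2F transcription factors to switch on genes of DNA synthesis. In G1, CDC6 and CDT1 load the MCM2-7 helicase onto origins, geminin (GMNN) blocks reloading once S phase has begun, and CDC45 with the GINS complex turns the loaded hexamer into the moving helicase. In HEK293T cells large T antigen holds RB family proteins away from E2F, so that this brake is known to be weak there. The comparison of STM2457 with DMSO asks, per the series design, how RNA and its translation respond when m6A is depleted.

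RNA-seq libraries held 43291730 to 51645739 counts and footprint libraries 3198063 to 4711513 recovered reads. All 7 HEK293T-associated marker genes were at 1 CPM (counts scaled to library size) or more in every library, with a summed level of 1131 to 1208 CPM with DMSO and 1178 to 1244 with STM2457. Summed markers of fibroblasts (FAP at 0), epithelial carcinoma lines (KRT5 and KRT19 at 0) and blood (HBB at 0) reached at most 21.6, 8.01 and 3.07 CPM. ERCC spike-ins took 0.403% ± 0.00949 of the counts in DMSO libraries and 0.433% ± 0.0224 in STM2457 libraries (SD, n = 4 each), with no overlap between groups (exact two-sided permutation p = 0.0286, the smallest that 4 against 4 libraries can give). The share was highest in STM2457 replicate 4, at 0.466%.

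Of the 34 genes, 26 had an entry in the RefSeq promoter table (GRCh38.p14), and CCND1, CCND2, CCNE2, CDK2, CDKN1C, E2F8, MCM4 and MCM5 had none. The 250 bases before the annotated start were searched on both strands for the E2F octamers TTTCCCGC, TTTGGCGC, TTTCGCGC and TTTGCCGC, and for CCAAT, the box bound by NF-Y. Matches of the same motif that overlap were counted once, and no octamer contains CCAAT. At least 1 E2F octamer was present in 12 of 26 promoters (46.2%), against 3.99% of 17463 promoters of genes tested in RNA and 2.77% of all 34943 promoters. CCAAT was present in 14 of 26 (53.8%), against 32.6% and 32%. The promoters of 5 genes with contrasting behaviour are printed 5′ to 3′ on the plus strand, with E2F octamers in capitals: CDT1 and E2F3, which had the largest rise and fall in RNA, CDKN1B, the CDK inhibitor p27, and CDC45 and TYMS, which fell in footprints. They lie at chr16:88803539-88803788 (CDT1), chr6:20401629-20401878 (E2F3), chr12:12717118-12717367 (CDKN1B), chr22:19479670-19479919 (CDC45) and chr18:657403-657652 (TYMS).
CDT1: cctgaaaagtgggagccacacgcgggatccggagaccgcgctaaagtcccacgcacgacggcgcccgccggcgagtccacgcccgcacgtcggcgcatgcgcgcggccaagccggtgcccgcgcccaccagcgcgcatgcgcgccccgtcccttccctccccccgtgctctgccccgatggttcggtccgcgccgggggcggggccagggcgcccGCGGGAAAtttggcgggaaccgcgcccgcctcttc
E2F3: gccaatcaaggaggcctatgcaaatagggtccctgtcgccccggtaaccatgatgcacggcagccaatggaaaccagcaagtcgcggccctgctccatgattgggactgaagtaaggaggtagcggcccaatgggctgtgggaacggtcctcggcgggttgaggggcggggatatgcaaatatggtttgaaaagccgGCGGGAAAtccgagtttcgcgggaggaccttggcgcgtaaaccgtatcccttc
CDKN1B: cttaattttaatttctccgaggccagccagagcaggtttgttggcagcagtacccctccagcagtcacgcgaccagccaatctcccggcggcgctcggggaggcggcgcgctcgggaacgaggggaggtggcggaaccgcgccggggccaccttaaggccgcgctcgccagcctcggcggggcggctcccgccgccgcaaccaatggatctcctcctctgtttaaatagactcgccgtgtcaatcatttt
CDC45: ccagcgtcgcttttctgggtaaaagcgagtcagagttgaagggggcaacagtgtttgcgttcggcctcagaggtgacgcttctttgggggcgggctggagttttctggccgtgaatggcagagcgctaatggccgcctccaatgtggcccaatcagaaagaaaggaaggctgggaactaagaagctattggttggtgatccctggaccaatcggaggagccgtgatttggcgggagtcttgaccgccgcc
TYMS: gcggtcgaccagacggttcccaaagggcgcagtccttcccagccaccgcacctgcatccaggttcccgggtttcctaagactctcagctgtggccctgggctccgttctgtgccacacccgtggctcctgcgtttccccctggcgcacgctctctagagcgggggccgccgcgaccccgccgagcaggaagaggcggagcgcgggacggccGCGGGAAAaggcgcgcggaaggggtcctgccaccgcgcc
The octamer begins 35 bases before the start in CDT1, 53 in E2F3 and 39 in TYMS, all as GCGGGAAA, the complement of TTTCCCGC. CDKN1B and CDC45 held none of these octamers but 2 and 4 CCAAT boxes, and E2F3 held 4.

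In RNA, 12 of the 34 genes rose and 11 fell with STM2457, and 11 did not pass the test. Counts were scaled with TMM, which assumes that most genes keep their level, and tested with edgeR's quasi-likelihood method at a Benjamini-Hochberg adjusted p under 0.05 over 17807 genes. The background was large, since 26.2% of all genes tested rose and 21.6% fell (47.8% in all), against 67.6% of the 34 genes called in either direction. The changes of the 34 genes were small. Their log2 fold changes ran from -0.38 to 0.41 with a median of -0.03, where the median of all genes was 0.00, and none reached 1.5-fold. The groups did not overlap in the 12 genes that rose, in 8 of the 11 that fell and, among those that did not pass, in MCM7, which was lower. Groups apart with STM2457 the higher or the lower were found in 24.9% and 19.8% of all genes tested (44.7% in all). A fit of replicates 1 and 2 called 12 of the 34 as higher and 13 as lower (24.3% and 20.1% of all genes, 44.4% in all), and a fit of replicates 3 and 4 called 9 and 7 (21.4% and 15.5%, 36.8% in all). All 23 genes called on the full set had the same direction in each. Both fits reuse libraries of the full set, and groups without overlap can hardly change direction, so this was not an independent check.

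**Figure D1:**
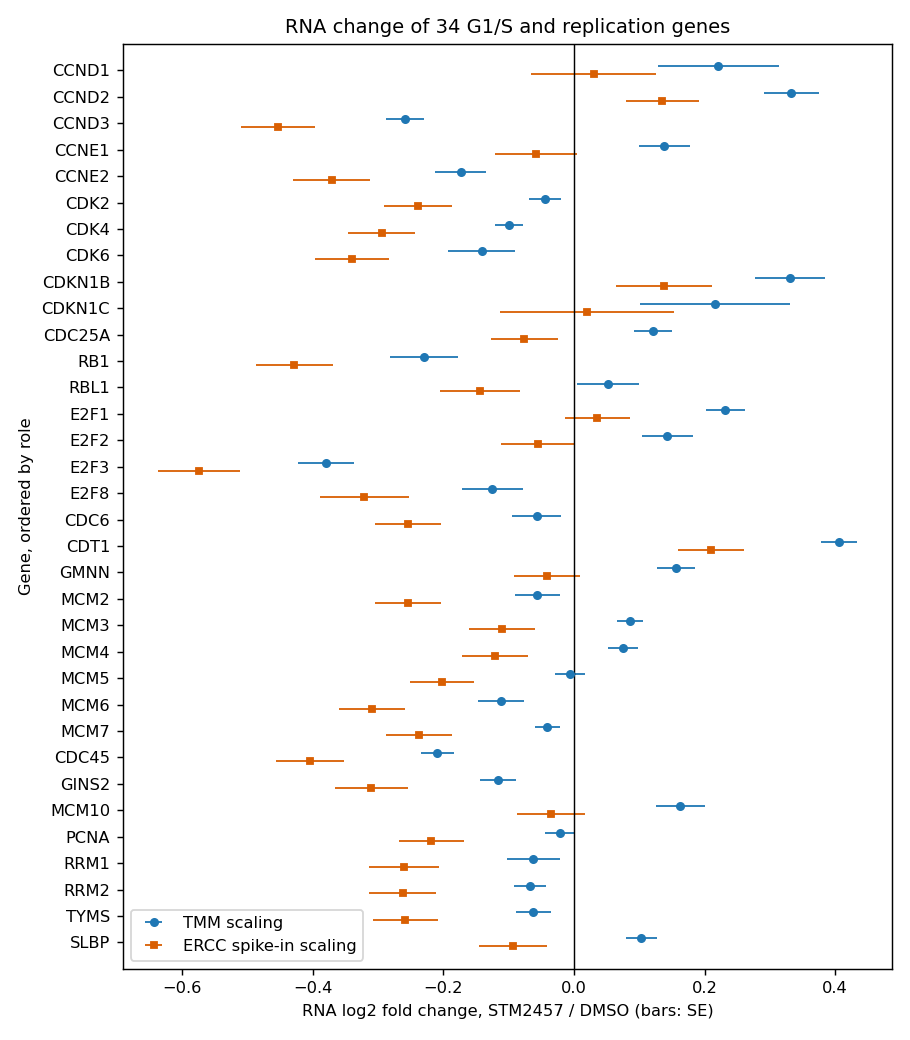
RNA log2 fold change of STM2457 over DMSO (x axis) for the 34 genes in order of role (y axis), with TMM scaling (circles) and ERCC spike-in scaling (squares), bars giving the standard error over 4 libraries per group. With TMM the points lie on both sides of 0 (-0.38 to 0.41), and with ERCC scaling every point lies further left, so that 6 remain above 0.

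The D cyclins moved apart. CCND2 RNA (ENSG00000118971.8) was at 77.6, 74.1, 70.6 and 75.0 CPM with DMSO and at 99.2, 95.8, 86.7 and 92.7 CPM with STM2457 in replicates 1 to 4. All STM2457 libraries were above all DMSO libraries, and CCND2 rose 1.26-fold (log2 0.33, SE 0.04, edgeR adjusted p = 2.81e-05). CCND3 RNA (ENSG00000112576.12) was at 62.4, 64.0, 62.4 and 63.3 CPM with DMSO and at 53.6, 51.4, 53.9 and 51.9 CPM with STM2457. Here every STM2457 library was the lower, and the log2 change was -0.26 (SE 0.03, edgeR adjusted p = 8.67e-06). CCND1 overlapped between the groups (15.98 to 20.11 CPM with DMSO, 18.36 to 23.73 CPM with STM2457) and did not pass (log2 0.22, SE 0.09, edgeR adjusted p = 0.0682). It passed without DMSO replicate 4 (0.29), STM2457 replicate 2 (0.27) or STM2457 replicate 4 (0.27), in replicates 1 and 2 alone (0.21, edgeR adjusted p = 0.0404) and with no filter on low counts (0.21, edgeR adjusted p = 0.00102).

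The E cyclins, which drive CDK2, also went in opposite directions with TMM scaling. CCNE1 rose by 0.14 on the log2 scale (SE 0.04, edgeR adjusted p = 0.0112). The CCNE1 call was lost in replicates 3 and 4 alone (0.12, edgeR adjusted p = 0.107) and in the RNA values of the series table (0.08). With ERCC scaling CCNE1 was at -0.06 without passing. CCNE2 RNA (ENSG00000175305.17) was at 32.1, 33.1, 33.4 and 32.5 CPM with DMSO and at 29.2, 30.4, 27.3 and 29.4 CPM with STM2457. The STM2457 libraries were all below the DMSO libraries, with a log2 change of -0.17 (SE 0.04, edgeR adjusted p = 0.00246).

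The kinases that partner these cyclins were flat or slightly lower. CDK4 fell by 0.10 on the log2 scale without overlap (245 to 251 CPM against 262 to 268 with DMSO, edgeR adjusted p = 0.00159). CDK6 had a log2 change of -0.14 (edgeR adjusted p = 0.038) with overlapping groups. That CDK6 call was lost when any of 5 libraries was left out (DMSO replicate 1, 2 or 4, STM2457 replicate 3 or 4, log2 -0.10 to -0.15). CDK2 did not pass (-0.04, edgeR adjusted p = 0.184).

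Of the 3 genes that restrain or activate CDKs directly, the inhibitor CDKN1B and the activator CDC25A rose with TMM scaling, and CDKN1C did not pass. CDKN1B (ENSG00000111276.11), which encodes the CDK inhibitor p27, was at 32.4, 31.6, 29.6 and 30.2 CPM with DMSO and at 40.4, 40.2, 40.6 and 34.5 CPM with STM2457. All STM2457 libraries were higher, replicate 4 by the least, and the log2 change was 0.33 (SE 0.05, edgeR adjusted p = 2.27e-04). CDC25A, the phosphatase that removes inhibitory phosphates from CDK2, rose by 0.12 (SE 0.03, edgeR adjusted p = 0.0040). CDKN1C, the inhibitor p57, was low (1.43 to 2.09 CPM, a mean of 85 counts) and did not pass, at a log2 change of 0.22 (SE 0.12, edgeR adjusted p = 0.143).

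Of the pocket proteins that hold E2F in check, RB1 fell and RBL1, the p107 gene, did not pass. RB1 RNA (ENSG00000139687.15) was at 65.3, 65.0, 59.9 and 61.0 CPM with DMSO and at 53.8, 58.3, 48.0 and 54.1 CPM with STM2457. The highest STM2457 library stayed below the lowest DMSO library, with a log2 change of -0.23 (SE 0.05, edgeR adjusted p = 0.00298). RBL1 was at 43.9 ± 1.67 and 45.6 ± 3.12 CPM (SD, n = 4, log2 0.05, edgeR adjusted p = 0.400).

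The E2F factors also split with TMM scaling. E2F1 RNA (ENSG00000101412.13), an activator of S-phase genes, was at 102, 107, 110 and 108 CPM with DMSO and at 125, 124, 125 and 129 CPM with STM2457. The groups did not overlap, and E2F1 rose 1.17-fold (log2 0.23, SE 0.03, edgeR adjusted p = 3.30e-05). E2F2, also an activator, rose by 0.14 (SE 0.04, edgeR adjusted p = 0.00939). The E2F2 call was lost in replicates 3 and 4 alone (0.14, edgeR adjusted p = 0.0839) and in the RNA values of the series table (0.05). With ERCC scaling E2F2 was at -0.06 without passing. E2F3 RNA (ENSG00000112242.15), the remaining activator, was at 88.9, 84.4, 79.7 and 88.1 CPM with DMSO and at 68.3, 63.8, 68.3 and 61.9 CPM with STM2457. All STM2457 libraries lay below all DMSO libraries, and the log2 change of -0.38 (SE 0.04, edgeR adjusted p = 1.05e-05) was the largest fall among the 34 genes. E2F8, an atypical E2F that represses, passed narrowly with overlapping groups (-0.13, edgeR adjusted p = 0.0443). Its call was lost without any single library other than DMSO replicate 3 or STM2457 replicate 1 (log2 -0.11 to -0.14 in the lost cases).

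Among the licensing genes, the loader CDT1 and its inhibitor geminin rose, whereas CDC6 did not pass. CDT1 RNA (ENSG00000167513.9) was at 94.1, 93.5, 97.5 and 99.9 CPM with DMSO and at 126, 127, 127 and 130 CPM with STM2457. The 1.32-fold rise, with no overlap, was the largest of the 34 genes (log2 0.41, SE 0.03, edgeR adjusted p = 9.35e-08). GMNN RNA (ENSG00000112312.10) was at 124, 127, 125 and 123 CPM with DMSO and at 137, 146, 134 and 139 CPM with STM2457. All STM2457 libraries were again above the DMSO libraries, by a log2 change of 0.16 (SE 0.03, edgeR adjusted p = 7.70e-04). CDC6, the other loader, had a log2 change of -0.06 (SE 0.04, edgeR adjusted p = 0.232) and overlapping groups.

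**Figure D2:**
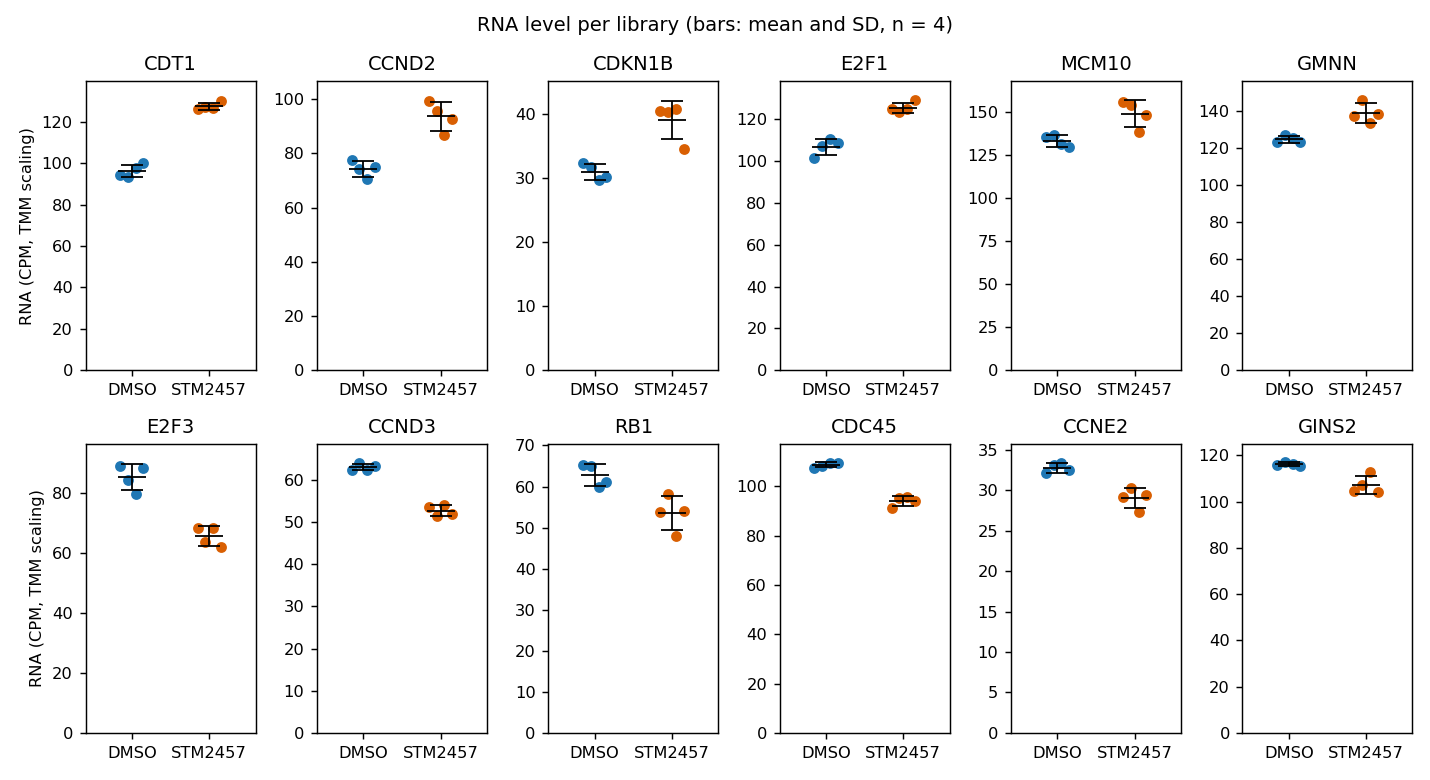
RNA level in CPM with TMM scaling (y axis, from 0) of each library (points) for the 6 largest rises and 6 largest falls without overlap, with mean and SD over 4 DMSO and 4 STM2457 libraries. CDT1 goes from 93.5 to 99.9 CPM with DMSO to 126 to 130 with STM2457, and E2F3 from 79.7 to 88.9 to 61.9 to 68.3.

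With TMM scaling, 2 of the 6 subunits of the MCM2-7 helicase rose in RNA, 1 fell and 3 did not pass, with log2 changes of -0.11 to 0.09. Scaled to ERCC, all 6 were below 0 (-0.31 to -0.11) and 5 passed as lower, where 47.1% of all genes were lower. Their ERCC median of -0.22 was close to that of all genes (-0.19). The RNA values of the series table gave 0 higher and 4 lower, where 27.4% of all genes were higher and 34.6% lower. MCM3 rose by 0.09 (SE 0.02, edgeR adjusted p = 0.00377), from 324 to 332 CPM with DMSO to 344 to 353 CPM with STM2457. MCM4 rose by 0.08 (SE 0.02, edgeR adjusted p = 0.0170), and its call was lost without DMSO replicate 3 (0.07) or STM2457 replicate 2 (0.06). MCM4 also did not pass with RLE scaling (0.06, edgeR adjusted p = 0.0730), with DESeq2 (0.06, adjusted p = 0.0717), with no filter on low counts (0.07) or in replicates 3 and 4 alone (0.06). MCM6 fell by 0.11 on the log2 scale (edgeR adjusted p = 0.0199) with overlapping groups. Without DMSO replicate 1 or 2 the MCM6 change was -0.10 and -0.09 and did not pass. MCM2 (-0.06), MCM5 (-0.01) and MCM7 (-0.04) did not pass, although the MCM7 groups did not overlap (456 to 460 against 442 to 449 CPM). MCM7 did pass as lower with RLE scaling (-0.06, edgeR adjusted p = 0.0412) and DESeq2 (-0.06, adjusted p = 0.0154). MCM2 passed as lower in replicates 1 and 2 alone (-0.07, edgeR adjusted p = 0.0414).

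Factors that start and move the fork also differed among themselves. CDC45 RNA (ENSG00000093009.9), part of the active helicase, was at 107, 108, 110 and 109 CPM with DMSO and at 91.3, 95.2, 95.5 and 94.1 CPM with STM2457. Every STM2457 library was lower, and the log2 change was -0.21 (SE 0.03, edgeR adjusted p = 1.62e-05). GINS2 RNA (ENSG00000131153.9), a subunit of the GINS complex, was at 116, 117, 116 and 116 CPM with DMSO and at 105, 107, 113 and 104 CPM with STM2457. Here too the groups were apart, with a log2 change of -0.12 (SE 0.03, edgeR adjusted p = 0.0046). The GINS2 call was lost in replicates 3 and 4 alone (-0.09, edgeR adjusted p = 0.140).

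MCM10 RNA (ENSG00000065328.16), which helps CDC45 and GINS activate the helicase, rose instead. Its values were 135, 136, 131 and 130 CPM with DMSO and 156, 154, 138 and 148 CPM with STM2457, and they did not overlap (log2 0.16, SE 0.04, edgeR adjusted p = 0.00279). PCNA, the clamp that holds the polymerase on DNA, was at 315 ± 2.54 and 310 ± 6.10 CPM (SD, n = 4) and did not pass (log2 -0.02, edgeR adjusted p = 0.448).

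The enzymes of nucleotide supply changed little. RRM2, the small subunit of ribonucleotide reductase, fell by 0.07 on the log2 scale (edgeR adjusted p = 0.0356). That call was lost without DMSO replicate 1 or 2 or STM2457 replicate 3 or 4 (log2 -0.05 to -0.07). RRM1, the large subunit, and TYMS, thymidylate synthase, both had a log2 change of -0.06 and did not pass (edgeR adjusted p = 0.226 and 0.0747). RRM1 did pass as lower in replicates 1 and 2 alone (-0.08, edgeR adjusted p = 0.0324), with ERCC scaling (-0.26) and in the RNA values of the series table (-0.14). SLBP, which binds the stem-loop of histone mRNAs and supports histone supply in S phase, rose by 0.10 (SE 0.02, edgeR adjusted p = 0.00316), from 120 to 125 CPM with DMSO to 130 to 131 CPM.

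The balance of rises and falls depended on the scaling. With library sizes set by the ERCC spike-ins, the median of all genes moved to -0.19, 2 of the 34 genes were higher and 21 lower (median -0.23), where 12.1% of all genes were higher and 47.1% lower (59.2% in all). CDT1 (0.21, edgeR adjusted p = 8.63e-04) and CCND2 (0.14, edgeR adjusted p = 0.0388) were higher with both scalings. All 11 genes that fell with TMM also fell with ERCC scaling, with log2 changes of -0.57 for E2F3, -0.45 for CCND3, -0.43 for RB1 and -0.40 for CDC45. As ERCC scaling lowered the log2 change of each of the 34 genes, a fall with TMM could hardly turn, and this was no check of the falls. CDKN1B (0.14) and E2F1 (0.04) no longer passed, and CCNE1, CDC25A, E2F2, GMNN, MCM3, MCM10 and SLBP turned to -0.11 to -0.04 without passing. MCM4, higher with TMM, was lower with ERCC scaling (-0.12, edgeR adjusted p = 0.0436), as were 9 genes that had not passed, among them CDC6, MCM2 and TYMS (each between -0.26 and -0.25). Without STM2457 replicate 4 the ERCC median of all genes was -0.16, with 3 of the 34 genes (CDT1, CCND2 and CDKN1B) higher (13.8% of all genes) and 19 lower (42% of all genes, 55.8% called in all). The CDKN1B RNA log2 fold change, whose STM2457 level was lowest in that library, was then 0.22 and passed (edgeR adjusted p = 0.00309). How the spike-ins were added is not given in the sources used here. In these bulk lysates less RNA per cell, fewer cells and a different share of cells in each cycle phase cannot be told apart.

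The RNA columns of the series table, on which the authors' efficiencies rest, put more of these genes below 0. Limma on log2(signal + 1) called 5 of 33 tested genes higher (CCND2, CDKN1B, E2F1, CDT1 and GMNN) and 18 lower, where 27.4% of 10906 genes were higher and 34.6% lower (62% in all). The median was -0.11, against -0.04 over all genes. The largest rises there were CDKN1B (0.33), CDT1 (0.32) and CCND2 (0.24), and the largest fall was E2F3 (-0.47).

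Ribosome footprints of the 34 genes went down in 3 cases and up in none. Footprint signals were tested with limma on log2(signal + 1) over 10906 genes with a mean of at least 10 reads per library, of which 9.59% were higher and 6.13% lower. CDKN1C, at a mean of 7.25 reads, was too low to be tested, which leaves 33 genes, and 9.09% of these were called against 15.7% of all genes. Their median log2 change was -0.06, against -0.03 for all genes. At an unadjusted p under 0.05 there were 0 higher and 6 lower genes with limma, where 14.5% of all genes were higher and 12.5% lower. On recovered reads edgeR called 0 higher and 4 lower (10.2% and 5.57% of all genes). The groups were apart in 15 genes that were lower and 5 that were higher, but with 2 libraries per group this held for 54% of all genes, 28.4% being lower.

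TYMS footprints were at a normalized signal of 4226 and 4762 with DMSO and 3304 and 3440 with STM2457. Both STM2457 libraries were below both DMSO libraries, and the log2 change was -0.41 (SE 0.10, limma adjusted p = 0.00117). CDC45 footprints went from 2762 and 3094 to 2328 and 2144, also without overlap (log2 -0.39, SE 0.10, limma adjusted p = 0.00584). GINS2 footprints went from 2189 and 2053 to 1576 and 1780 (log2 -0.34, SE 0.11, limma adjusted p = 0.0291), again with both STM2457 libraries the lower. All 3 calls were lost without DMSO replicate 2 (TYMS -0.33, CDC45 -0.31, GINS2 -0.39), and that of GINS2 also without DMSO replicate 1 (-0.29) or STM2457 replicate 1 (-0.25).
The same 3 genes had lower RNA means with STM2457, though TYMS RNA did not pass with TMM. TYMS RNA did pass as lower with RLE scaling (-0.08, edgeR adjusted p = 0.0385), DESeq2 (-0.08, adjusted p = 0.0358), ERCC scaling (-0.26) and the table's signal (-0.14). ENOSF1, a gene on the opposite strand that overlaps TYMS, had 22% as many RNA counts as TYMS. The library kit keeps strand per the labels, but whether counting used it is not stated.

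**Figure D3:**
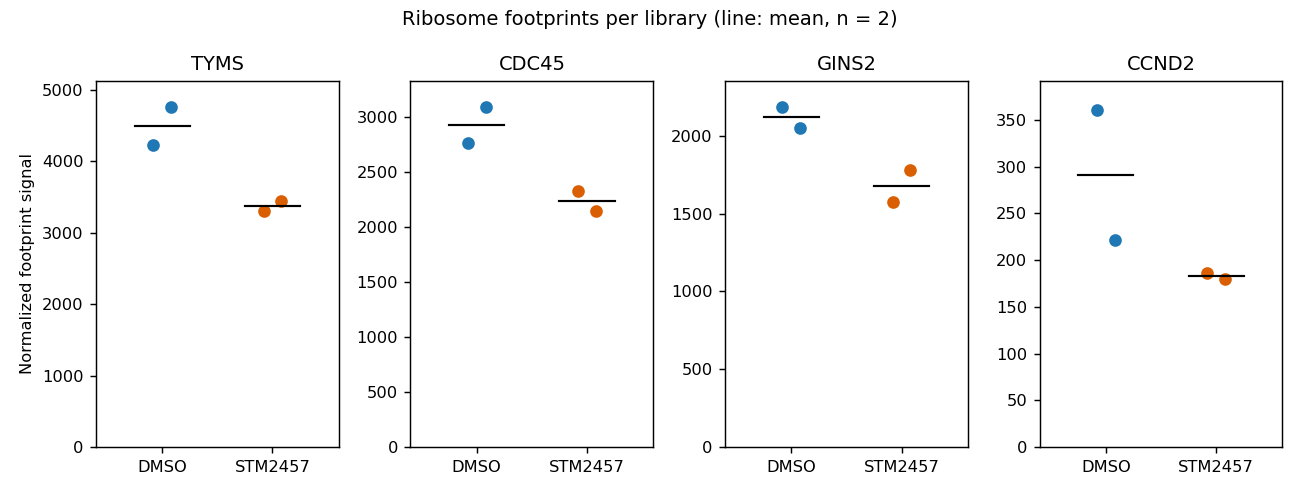
Normalized footprint signal (y axis, from 0) of each of the 2 DMSO and 2 STM2457 libraries (points), with lines at the mean, for TYMS, CDC45, GINS2 and CCND2. All STM2457 points lie below all DMSO points of the same gene, and the CCND2 DMSO points lie far apart (361 and 222).

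CCND2 footprints went against CCND2 RNA. The signal was 361 and 222 with DMSO and 186 and 180 with STM2457, from 112, 46, 49 and 46 reads. The DMSO libraries differed by more than the distance from the lower DMSO library to the STM2457 libraries. The log2 change of -0.63 (SE 0.25) did not pass with limma (adjusted p = 0.0860) and passed with edgeR on reads (-0.69, adjusted p = 0.0455). Without DMSO replicate 1 it was -0.28, and without DMSO replicate 2 it was -0.98 (limma adjusted p = 0.0274).

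The other control genes did not pass in footprints. CCNE1 (0.26), CDKN1B (0.26), E2F1 (0.13) and CDC25A (0.09) were above 0, as in RNA, and E2F2 (-0.40), E2F8 (-0.26), E2F3 (-0.22), CCNE2 (-0.21) and CCND3 (-0.20) were below. Without STM2457 replicate 2, CCND3 fell (-0.46, limma adjusted p = 0.0262), and without STM2457 replicate 1 it was at 0.06. Those of CDK2, CDK4, CDK6, RB1, RBL1 and CCND1 lay between -0.06 and 0.04. With standard errors of 0.09 to 0.24, changes of the size seen in RNA were not detectable in most of these genes. How far read depth or the 2 libraries per group set these errors was not tested.

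For the helicase (means of 1752 to 4042 reads per library), MCM2 (-0.21), MCM7 (-0.18), MCM6 (-0.17) and MCM5 (-0.10) were lower in both STM2457 libraries than in both DMSO libraries without passing. Such a separation with STM2457 the lower was found in 28.4% of all genes. MCM3 (0.06) and MCM4 (0.02) overlapped. MCM2 alone passed when STM2457 replicate 2 was left out (-0.24, limma adjusted p = 0.0488). In licensing, CDT1 (0.17) and GMNN (0.19) were above 0 and CDC6 (-0.20) below, and none passed. MCM10 (0.04), PCNA (-0.05), RRM1 (-0.13), RRM2 (-0.07) and SLBP (0.11) did not pass either.

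**Figure D4:**
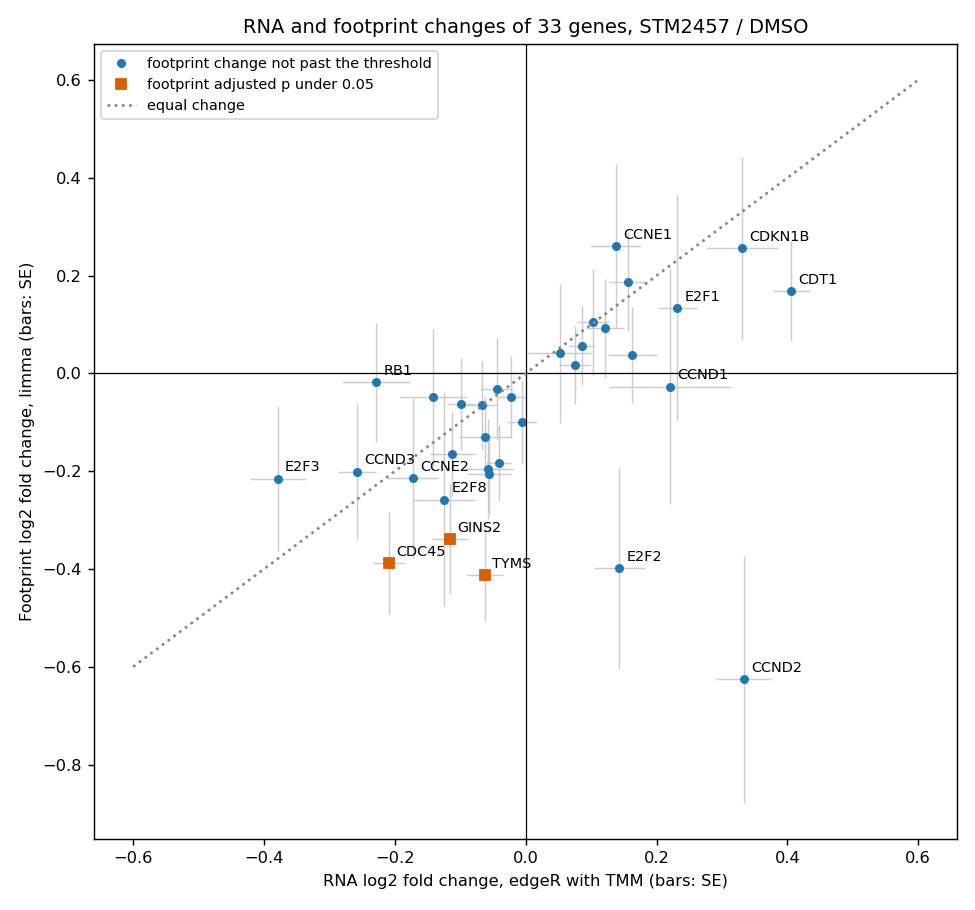
Log2 fold change in RNA (edgeR with TMM, x axis) against that in footprints (limma, y axis) for the 33 genes tested in both, with bars for the standard error of each. The footprint change has the sign of the RNA change in 30 genes, the exceptions being CCND1, CCND2 and E2F2, and squares mark the 3 genes that passed in footprints. The share of all genes with the same sign was not computed.

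RNA and footprint changes had the same sign in 30 of the 33 genes. The exceptions were CCND1, E2F2 and CCND2, all higher in RNA (CCND1 without passing) and below 0 in footprints, without passing there with limma.

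Translational efficiency, the footprint signal relative to the RNA signal, changed in 0 of the 33 genes in a limma interaction fit with a separate weight for each assay, which called 1.04% of all genes (0.229% higher and 0.807% lower). At an unadjusted p under 0.05 this fit gave 0 higher and 3 lower genes, where 3.81% of all genes were higher and 5.58% lower. Log2 changes ran from -0.87 to 0.28 with a median of 0.02, against 0.01 for all genes. The weights were 1.95 for RNA and 0.263 for footprints. Weights were planned because an earlier fit with a spread shared by both assays made many false calls on simulated data. A fit with a shared spread for both assays called 3 genes lower and 0 higher (7.56% of all genes called, 3.11% higher and 4.46% lower), and an edgeR interaction on counts and recovered reads called 2 lower and 0 higher (3.9% called, 1.14% higher and 2.76% lower). CCND2 was lower in both of these (log2 -0.87, limma adjusted p = 0.0335, and -1.02, edgeR adjusted p = 0.0152), but not with weights (limma adjusted p = 0.268). Without the footprint library of DMSO replicate 1 the CCND2 efficiency change was -0.52, and without that of DMSO replicate 2 it was -1.22. TYMS likewise was lower with the shared spread (-0.27, limma adjusted p = 0.0248) and with the edgeR interaction (-0.30, edgeR adjusted p = 0.0190) and not with weights (limma adjusted p = 0.341). E2F2 was lower with the shared spread only (-0.45, limma adjusted p = 0.0428, against 0.0735 with the edgeR interaction and 0.499 with weights).

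In the authors' deposited table, the efficiency of the 34 genes with DMSO ranged from 0.193 for E2F1 to 7.13 for CDK6, with a median of 1.45 where the table's median was 1.01, and 30 of the 34 lay above the table's median. The regions over which the table's reads were counted are not stated, so these ratios are the authors' and were not compared between genes by a test. CDK6, CCND2 (5.29) and CCND1 (2.72) stood at the 99.8, 99.6 and 97.5 percentiles of the authors' deposited table, and E2F1 at the 2.7 percentile. With DMSO, CDK6 had an RNA signal there of 126 to 148 (91.1 to 101 CPM in the counts) and CCND2 of 54.2 to 55.3 (70.6 to 77.6 CPM). CDK2 had 1584 to 1677 (145 to 150 CPM). The high ratios of CDK6 and CCND2 thus go with a table RNA signal that was low for their counts, and why was not tested. For the 3 genes above, the authors' deposited table gives 5.29 with DMSO and 2.85 with STM2457 for CCND2, 1.62 and 1.34 for TYMS, and 1.59 and 1.13 for E2F2. Its efficiencies of the MCM2-7 subunits with DMSO lay between 1.46 (MCM6) and 1.90 (MCM3).

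Other genes of the pathway, taken from lists by known role, chosen with earlier results of these data known, were counted in the same fits. Of 40 further G1/S control genes 17 rose and 10 fell in RNA (26.2% and 21.6% of all genes did). Scaled to ERCC, the counts became 4 higher and 20 lower (12.1% and 47.1% of all genes). AMBRA1, an adaptor of the ubiquitin ligase that degrades D cyclins, rose by 0.85 and CDKN2B, the CDK4 and CDK6 inhibitor p15, by 0.83, followed by CABLES1, which binds CDKs (0.41). CDK8 (-0.35) and its partner CCNC (-0.20), both of the Mediator kinase module, fell, as did the phosphatase CDC25B (-0.24). All 6 kept these directions and passed with ERCC scaling, though its downward shift of most genes left the falls little room to turn. In footprints 3 of the 40 rose and 4 fell (9.59% and 6.13% of all genes), with AMBRA1 (0.90), CDKN2B (0.90) and FBXO5 (0.55), an inhibitor of the anaphase-promoting complex, higher, and CDKN3 (-0.47), RBL2 (-0.51) and CACUL1 (-0.46) among the lower.

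Of 64 further replication genes 12 rose and 16 fell in RNA, or 43.8% called against 47.8% of all genes. Scaled to ERCC, the counts became 8 higher and 44 lower, or 81.2% called against 59.2%. FEN1, the flap nuclease of Okazaki fragment maturation, rose by 0.75, MCM9, a helicase of repair, by 0.73 and GINS3 by 0.71, whereas the origin recognition subunits ORC5 (-0.46) and ORC6 (-0.28) and the single-strand binding subunit RPA2 (-0.17) fell. These directions also held and passed with ERCC scaling, which again was a check of the rises and hardly of the falls. Of 61 tested in footprints 8 rose and 4 fell (19.7% called against 15.7% of all genes), MCM9 (1.28) and the origin recognition subunit ORC1 (0.68) among the former and ORC6 (-0.68), the histone chaperone ASF1B (-0.33) and the helicase RECQL4 (-0.59) among the latter. In efficiency with weights 0 of the 40 and 0 of the 61 genes passed, with 2 higher and 2 lower, and 2 higher and 1 lower, at an unadjusted p under 0.05 in limma.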

How the data were processed

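RNA-seq came from 4 DMSO and 4 STM2457 libraries and ribosome profiling from 2 and 2. The deposited files give the authors' raw read counts per gene, with 92 ERCC spike-in rows, and a table with the authors' normalized signal per library and the ratio of mean footprint to mean RNA signal (translation efficiency, with its change as log2), where the authors' RNA means cover replicates 1 to 3. The table's WT columns were taken as DMSO. Per the submitters' processing notes, STAR 2.7.3a, UMI-tools 1.1.2, Subread 2.0.3 and featureCounts were among the tools, with GRCh38.p12.

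RNA counts were tested by the quasi-likelihood method of edgeR 4.0.16 under R 4.3.3 (TMM, filterByExpr, spike-ins left out), and the standard error is the absolute log2 change divided by the square root of F. Each footprint signal was a whole number of steps of 1 read (100% within 0.1 of a step), so reads were recovered, and footprints and efficiency were tested with limma 3.58.1 on log2(signal + 1). Adjusted p under 0.05 (Benjamini-Hochberg, all genes tested) was the threshold throughout. Efficiency is the interaction of assay and treatment with a weight per assay. Scripts were tested on simulated data. Alternatives included DESeq2 1.42.0, ERCC scaling, other filters and pseudocounts, and leaving out each library. The RNA fit on the table's signal was chosen after seeing the data.

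The members and lists were chosen with earlier results of these data known, so no test of a list is given. Values per library are printed for the 6 largest rises and 6 largest falls in RNA that passed without overlap between groups. In footprints they are printed for members that passed and for CCND2. Efficiency changes are given by name for members where any of 3 fits passed or the change reached 0.5. From the other lists, genes with the 3 smallest p in each direction are named. Named pseudogenes of the members held at most 0.0715% of the parent gene's counts. Footprints had fewer reads and fewer libraries than RNA, and the part of each in the footprint errors was not tested. RNA counts per member averaged 85 to 21992 per library.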

Additional observations from a re-analysis of the deposited data

Results flagged for a closer look

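Of 70 groups of 4 libraries checked for a library far from its fellows, 4 were listed, where chance gives about 1 in 20, or 3.5. Each has 1 library whose gap to the nearest of the others takes up more of the group's range than Dixon's 95% critical value allows. CDKN1B RNA with STM2457 was at 34.5 CPM in replicate 4 against 40.2 to 40.6 in the others (ratio 0.932). E2F8 RNA with DMSO was at 24 CPM in replicate 3 against 26.5 to 27.0 (ratio 0.836). MCM2 RNA with STM2457 was at 229.9 CPM in replicate 3 against 251 to 254 (ratio 0.859). The ERCC share with DMSO was 0.389% in replicate 1 against 0.407% to 0.408% (ratio 0.972).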

How the results depend on the processing

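In RNA the direction of the members depended on the scaling. Scaled to ERCC, 2 members were higher and 21 lower, without STM2457 replicate 4 as well 3 and 19, and with RNA values of the series table the counts were 5 and 18, and the cause was not tested. The ERCC scaling turned the RNA log2 changes of CCNE1 (-0.058), CDC25A (-0.076), RBL1 (-0.144), E2F2 (-0.055), GMNN (-0.041), MCM3 (-0.110), MCM4 (-0.121), MCM10 (-0.035) and SLBP (-0.093). Without STM2457 replicate 4, MCM10 was at 0.001 and the others at CCNE1 -0.018, CDC25A -0.043, RBL1 -0.092, E2F2 -0.054, GMNN -0.007, MCM3 -0.076, MCM4 -0.081 and SLBP -0.059. MCM4 was at -0.003 in the table's signal. Replicates 3 and 4 alone gave 7 lower members and MCM5 RNA at 0.005, with fewer libraries in the fit.
Leaving out each RNA library gave 11 to 13 higher and 7 to 11 lower members, the fewest lower ones without DMSO replicate 1 or 2, and MCM5 RNA from -0.021 to 0.003. The ERCC share difference was 0.0195 to 0.0366 percentage points without 1 library, and its exact p was 0.0571 without any single DMSO library.
Footprint calls were 232 of 1715 genes and 0 of 3 members without limma's trend, and with each library left out 1004 to 1464 genes and 1 to 5 members (all lower). RB1 footprints were at 0.004 with edgeR. Ranges with each library left out crossed 0 for footprints of CCND1 (-0.142 to 0.087), CCND3 (-0.462 to 0.061), CDK2 (-0.138 to 0.074), CDK4 (-0.128 to 0.001), CDK6 (-0.213 to 0.115), RB1 (-0.104 to 0.067), E2F1 (-0.046 to 0.313), MCM3 (-0.021 to 0.136), MCM4 (-0.037 to 0.071), MCM10 (-0.041 to 0.116) and PCNA (-0.116 to 0.021).
Efficiency calls were 113 genes with weights, 825 with a shared spread and 425 with the edgeR interaction, with 0, 3 and 2 members, all lower. Without the footprints of DMSO replicate 1, DMSO replicate 2 or STM2457 replicate 2 the weighted fit called 49, 37 and 45 genes, the highest count with a library left out being 129, and 0 members in each case.
The replicate numbers carry no stated pairing: same-numbered RNA libraries had correlated deviations of 0.151, 0.227, 0.148 and 0.076. DMSO replicate 4 correlated best with STM2457 replicate 3 (0.275). Across the groups, replicates 1 and 2 correlated positively with replicates 1 and 2 (0.111 to 0.227), and 3 and 4 with 3 and 4 (0.076 to 0.275). Correlations between these 2 sets were all negative (-0.256 to -0.085). Deviations were taken from the group mean, so positive values within the sets force negative ones between them. The negative values are thus no separate sign of 2 sets. Whether and how replicates 1 and 2 differed in handling from 3 and 4 is not stated, and the main fit had no term for it. With a block for each replicate number 13 members were higher and 14 lower in RNA, and 3 lower in footprints. The shares of all genes called with this block are not given here, so these counts say nothing particular about the members.
Over all single-gene results 859 alternatives kept the direction and the side of the threshold, 48 gained it, 51 lost it and 39 turned. The balance of MCM2-7 footprints per codon, planned with its leave-one-out, was not run, as no coding lengths were used here.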
